A study of Mus musculus with 12 samples.

Results

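The basement membrane has linker proteins, proteoglycans and associated collagens beside its laminin and type IV collagen networks, and 10 genes of these classes were followed in cultured mouse mesangial cells (MMC) by RNA-seq: Nid1, Nid2, Hspg2, Agrn, Col15a1, Col18a1, Fras1, Frem1, Frem2 and Npnt. They were taken by gene symbol from the 25230 genes counted in each library. The MMC, grown from kidney glomeruli, were either wild-type (WT) or from the lncMGC-KO5 line of mice (KO), in which CRISPR-Cas9 editing of C57BL/6J embryos deleted sequence around the start of lncMGC, the host transcript of the miR-379 cluster. Cells of both genotypes were serum-depleted (SD) or received TGF-β (10 ng/ml, 24 h), which gave 4 groups of 3 libraries each, WT-SD and WT-TGF for the WT and KO-SD and KO-TGF for the KO. KO5 is a single mutant line, and glomeruli were pooled before culture. The study calls the samples independent without saying whether they were separate animals or cultures, so the p-values measure the spread between these libraries, which may be technical.

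Nidogens, encoded by Nid1 and Nid2, are rod-like glycoproteins that bind both laminin and type IV collagen and so link the networks. Perlecan (Hspg2) and agrin (Agrn) are large core proteins that carry heparan sulfate chains, and type XVIII collagen (Col18a1) carries them too, while its relative type XV collagen (Col15a1) carries mainly chondroitin sulfate. Both of these collagens end in a domain that proteases can release, which for type XVIII collagen is endostatin. FRAS1, FREM1 and FREM2 form a complex under epithelia that is lost in Fraser syndrome and related disorders, and nephronectin (Npnt) is a ligand of the integrin that contains ITGA8, with a role in kidney development. In the glomerulus, mesangial cells lie between the capillary loops and lay down a matrix that holds perlecan and nidogen, and expansion of that matrix is a feature of diabetic kidney disease (DKD).

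The depth was even, with 19898050 to 22827706 counts on genes per library, and no pair of libraries in a group agreed within sampling noise (chi-square per degree of freedom of 1.33 to 5.20). Levels are given as CPM, the count of a gene relative to a library size scaled by the TMM method, and as RPKM, which also divides by exon length, where genes are compared with one another. A gene was tested if its RPKM exceeded 1 in at least 1 library, as 11478 genes did. Of the 10 genes, 8 passed this limit and Frem1 and Frem2 did not, so these were read from the same test on all 18565 genes with a count. A gene was called at FDR <5% in the quasi-likelihood test of edgeR, with p-values adjusted by the Benjamini-Hochberg method. lncMGC itself is not a gene in the counts. Of the noncoding RNAs that share exons with it, Rian was at 42.4 ± 2.61 CPM in WT-SD, 76.1 ± 3.19 in WT-TGF, 69.9 ± 0.880 in KO-SD and 99.2 ± 5.50 in KO-TGF (SD, n = 3 each), higher in KO in both conditions (log2 fold change 0.72 ± 0.05, SE, in SD and 0.38 ± 0.04 in TGF-β). Mirg had 2.33 ± 0.308, 3.59 ± 0.153, 3.67 ± 0.548 and 4.26 ± 0.548 CPM in the same order and Meg3, a neighbour, 155 ± 4.77, 184 ± 0.236, 199 ± 16.5 and 196 ± 7.01. None of the 3 had a lower mean in KO than in the matching WT group. By RT-qPCR the study reports the opposite, with Meg3, Rian and Mirg significantly lower in KO5 than in WT cells. The reason for this difference was not tested. These counts therefore do not check the deletion, and KO stands throughout for the libraries labelled KO, with every direction between genotypes resting on those labels.

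The cells carried markers of mesangial and smooth muscle cells, and of the 12 genes on that list 8 were tested. The summed level of the list was 2631 to 2775 CPM in WT-SD, 5885 to 6043 in WT-TGF, 5087 to 5278 in KO-SD and 11226 to 11313 in KO-TGF. It was led by Acta2 and Tagln and does not describe every marker. Cnn1 and Cspg4 moved as the sum did. Des went the other way, with group means of 7.68, 5.61, 0.529 and 0.247 CPM in WT-SD, WT-TGF, KO-SD and then KO-TGF. Pdgfra did too, at 3.55, 0.646, 1.97 and 0.212 CPM, and Thy1 had at most 1 count in a library. None of the 7 endothelial markers passed the limit, and their sum was at most 1.35 CPM in a library. Markers of some other cells differed between the groups and are given after the 10 genes.

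**Figure D1:**
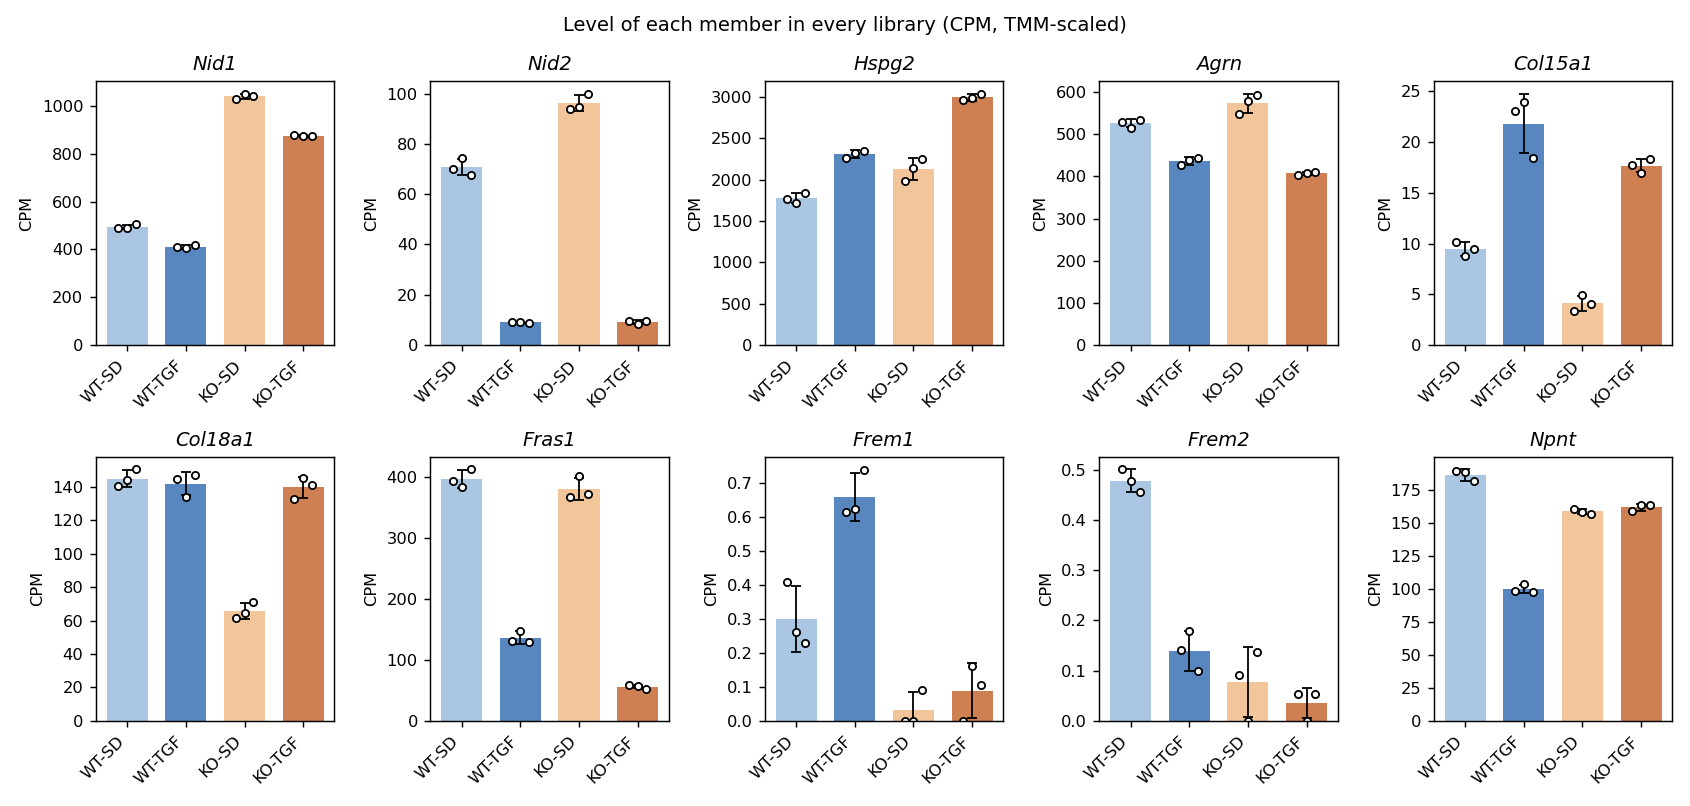
CPM of each of the 10 genes in every library, by group; bars are means of 3 libraries, error bars the SD and circles the libraries, and each panel has its own axis from 0. Nid1 was higher in both KO groups, Nid2 was near 9 CPM in both TGF-β groups, Col18a1 was low in KO-SD alone, Npnt was low in WT-TGF alone, and Frem1 and Frem2 stayed below 1 CPM.

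Per exon length, perlecan was the most abundant of the 10 transcripts in 3 of the 4 groups. Hspg2 was at 124 ± 4.30 RPKM in WT-SD, 161 ± 3.13 in WT-TGF, 148 ± 9.37 in KO-SD and 209 ± 2.85 in KO-TGF (mean ± SD, n = 3, as for all means here). In KO-SD its libraries overlapped those of Nid1, which was at 149.9 ± 1.70 RPKM. In WT-SD the order below Hspg2 was Nid1 at 71.3 ± 1.25 RPKM, Agrn at 56.7 ± 1.11, Npnt at 37.0 ± 0.850, Fras1 at 22.4 ± 0.845, Col18a1 at 20.7 ± 0.717, Nid2 at 13.7 ± 0.644 and Col15a1 at 1.49 ± 0.109, and no library of one gene overlapped those of its neighbour. Frem2 and Frem1 came last, at 0.0361 ± 0.00171 and 0.0214 ± 0.00694 RPKM.

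This order changed between groups. In WT-TGF, Col18a1 at 20.2 ± 0.980 RPKM and Npnt at 19.8 ± 0.635 overlapped, and Nid2 was below Col15a1, at 1.75 ± 0.0213 against 3.44 ± 0.465. In KO-SD, Nid2 at 18.6 ± 0.634 RPKM was above Col18a1 at 9.35 ± 0.687. In KO-TGF, Fras1 had moved below Col18a1, at 3.16 ± 0.171 RPKM against 19.9 ± 0.924. Frem1 and Frem2 overlapped in both KO groups.

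**Figure D2:**
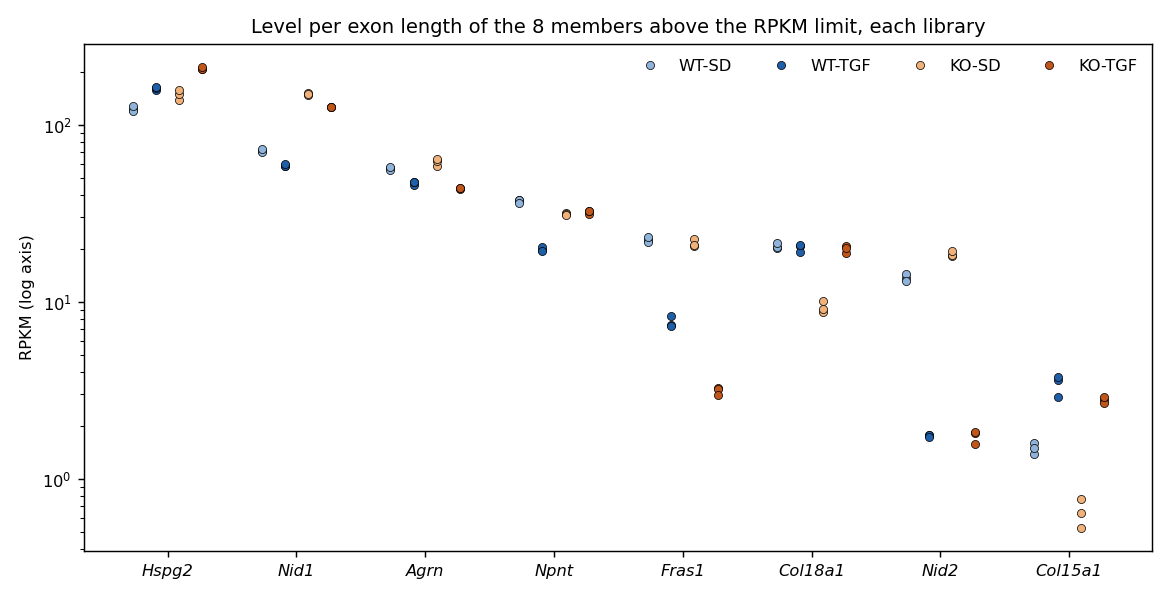
RPKM on a log axis for the 8 genes above the RPKM limit, with a point for each library coloured by group and genes ordered by their mean in WT-SD. Hspg2, Nid1 and Agrn lay above the other genes in every library, while Nid2 and Fras1 lay near Col15a1 in KO-TGF.

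Summed over the 10 genes, RPKM was 347 ± 6.56 in WT-SD, 321 ± 4.46 in WT-TGF, 442 ± 14.1 in KO-SD and 439 ± 3.95 in KO-TGF. The KO libraries were above the WT libraries in both conditions with no overlap, for which an exact permutation test of 3 against 3 libraries (two-sided) gives p = 0.1, the smallest it can reach. The KO-SD and KO-TGF sums overlapped (exact permutation p = 0.8). Hspg2 made up 35.7 ± 0.561% of the sum in WT-SD, 50.3 ± 0.283% in WT-TGF, 33.6 ± 1.08% in KO-SD and 47.7 ± 0.251% in KO-TGF.

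To show the sequence before the annotated starts of these genes, the 190 bases before the outermost RefSeq or GENCODE start were taken (GRCm38.p6, the assembly of mm10). This was done for the genes whose promoter entry covers them. For Nid1 and Col18a1 that start is the GENCODE one, outside the RefSeq coordinates given for these genes below. Where transcription starts in these cells was not tested. Of the 10 genes, 8 had a promoter entry, and 5 of these covered the whole window. These 5 differ in pattern: Nid1 by genotype, Hspg2 and Agrn in opposite directions with TGF-β, and Col18a1 and Npnt with a response in 1 genotype. Capitals mark the GC box, GGGCGG or CCGCCC on the other strand, and each sequence is written 5′ to 3′ on the strand of its gene.
Nid1 (chr13:13437361-13437550, plus strand): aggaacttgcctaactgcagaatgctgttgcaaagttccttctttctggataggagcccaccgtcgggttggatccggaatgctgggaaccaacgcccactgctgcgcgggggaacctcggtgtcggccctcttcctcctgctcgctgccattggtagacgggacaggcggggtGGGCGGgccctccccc
Hspg2 (chr4:137468561-137468750, plus strand): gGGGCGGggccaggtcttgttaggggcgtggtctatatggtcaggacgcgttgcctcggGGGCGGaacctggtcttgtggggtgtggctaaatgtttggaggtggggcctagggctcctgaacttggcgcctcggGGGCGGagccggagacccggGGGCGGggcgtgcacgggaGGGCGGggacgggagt
Agrn (chr4:156197534-156197723, minus strand): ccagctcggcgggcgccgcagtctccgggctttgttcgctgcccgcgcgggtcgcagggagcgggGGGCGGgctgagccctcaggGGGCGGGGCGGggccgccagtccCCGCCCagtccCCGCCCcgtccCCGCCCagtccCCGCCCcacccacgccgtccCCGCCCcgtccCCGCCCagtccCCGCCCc
Col18a1 (chr10:77166549-77166738, minus strand): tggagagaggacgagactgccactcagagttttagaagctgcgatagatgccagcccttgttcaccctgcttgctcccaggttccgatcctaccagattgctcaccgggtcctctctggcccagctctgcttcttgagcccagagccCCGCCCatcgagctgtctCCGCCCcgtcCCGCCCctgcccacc
Npnt (chr3:132950292-132950481, minus strand): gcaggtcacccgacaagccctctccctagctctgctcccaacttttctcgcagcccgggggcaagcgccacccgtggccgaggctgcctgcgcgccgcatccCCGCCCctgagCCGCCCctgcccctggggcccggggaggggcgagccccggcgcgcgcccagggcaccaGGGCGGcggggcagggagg

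The GC box was found 1 time before Nid1, 5 times before Hspg2, 10 times before Agrn (with matches that overlap each other), 3 times before Col18a1 and 3 times before Npnt. Of 32851 windows of the same length before RefSeq starts, 30.7% held it. The 5 windows had a GC content of 62.6% to 83.7%. Neither CAGAC, the letters of a SMAD box, nor CAGGTG, an E-box, was found in them on either strand, while 34.1% and 13.3% of all windows held these.

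The nidogen genes were compared as the linkers of the laminin and collagen networks. Nid1 (chr13:13437602-13512275, plus strand) had 492, 489 and 505 CPM in the WT-SD libraries and 408, 405 and 419.8 in WT-TGF. In KO-SD it had 1029, 1053 and 1041 CPM, and in KO-TGF 878, 875 and 876. Every KO library was above every WT library, and within a genotype every TGF-β library was below every SD library. Nid1 was 2.10-fold higher in KO-SD than WT-SD (log2 fold change 1.07 ± 0.02, SE, adjusted p = 1.37e-26) and 2.13-fold higher in KO-TGF than WT-TGF (1.09 ± 0.02, adjusted p = 1.13e-26). With TGF-β it fell by 0.27 ± 0.02 on the log2 scale in WT and by 0.25 ± 0.02 in KO. The difference between these responses, tested as the interaction of genotype and treatment, was 0.02 ± 0.03 and did not pass the test (adjusted p = 0.7).

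Nid2 (chr14:19751257-19811787, plus strand) had another pattern. It was at 70.2, 74.4 and 67.8 CPM in WT-SD and at 94.1, 94.7 and 100.04 in KO-SD. With TGF-β it was at 9.12, 9.13 and 8.94 CPM in WT and at 9.36, 8.17 and 9.55 in KO. All 6 TGF-β libraries were far below all 6 SD libraries, and the TGF-β libraries of the genotypes overlapped. The fall was 7.81-fold in WT (adjusted p = 4.05e-28, log2 fold change -2.97 ± 0.06) and 10.7-fold in KO (-3.41 ± 0.06, adjusted p = 8.2e-30), the largest change with TGF-β among the 10 genes in each genotype. Nid2 was 1.36-fold higher in KO-SD than WT-SD (0.44 ± 0.04, adjusted p = 2.31e-11). Its response was larger in KO by 0.45 on the log2 scale (interaction -0.45 ± 0.09, adjusted p = 0.000477), and the difference between KO-TGF and WT-TGF was -0.01 ± 0.09 (adjusted p = 0.961).

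The ratio between the nidogens moved with both genotype and treatment. Per length there were 5.22 ± 0.327 Nid1 transcripts for each of Nid2 in WT-SD, 33.8 ± 1.07 in WT-TGF, 8.06 ± 0.277 in KO-SD and 72.7 ± 6.23 in KO-TGF. No group overlapped another in the 4 comparisons made (exact permutation p = 0.1 each, the smallest possible). The summed RPKM of both genes was 85.0 ± 0.751 in WT-SD, 60.9 ± 1.12 in WT-TGF, 169 ± 1.86 in KO-SD and 128 ± 0.322 in KO-TGF, so the sum followed Nid1.

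The proteoglycan core proteins did not move together. Hspg2 (chr4:137468751-137570630, plus strand) was at 1763, 1716 and 1838 CPM in WT-SD, 2259, 2323 and 2345 in WT-TGF, 1983, 2139 and 2249.6 in KO-SD and 2961, 2982 and 3039.7 in KO-TGF. Every TGF-β library was above the SD libraries of its genotype, and every KO library was above the WT libraries of its condition. Hspg2 rose 1.30-fold with TGF-β in WT (adjusted p = 9.64e-13, log2 fold change 0.38 ± 0.03) and 1.41-fold in KO (0.50 ± 0.03, adjusted p = 1.36e-15). It was 1.20-fold higher in KO-SD and 1.30-fold higher in KO-TGF than in the matching WT group. The interaction was 0.11 ± 0.04 (adjusted p = 0.0444), and this call was lost when library sizes were not scaled by TMM (0.07, adjusted p = 0.247), when genes needed more than 1 CPM in 3 or more libraries (adjusted p = 0.0606) or when any of 6 libraries was left out (WT-SD 1 or 3, WT-TGF 1 or 2, KO-SD 1 or 2, with adjusted p of 0.0533 to 0.158).

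Agrn (chr4:156165290-156197533, minus strand) moved the other way with TGF-β. Its level was 530.2, 515 and 535 CPM in WT-SD, 426, 440.0 and 443 in WT-TGF, 547, 579.7 and 593 in KO-SD and 404, 408 and 411 in KO-TGF. The SD libraries lay above the TGF-β libraries in each genotype without overlap. Agrn fell 1.21-fold in WT (adjusted p = 1.87e-10, log2 fold change -0.27 ± 0.03) and 1.41-fold in KO (-0.49 ± 0.03, adjusted p = 1.32e-16), and the fall was larger in KO (interaction -0.22 ± 0.04, adjusted p = 3.42e-05). Between genotypes it was higher in KO-SD by 0.12 ± 0.03 and lower in KO-TGF by 0.10 ± 0.03 on the log2 scale (adjusted p = 0.000218 and 0.00256), differences of less than 1.1-fold, and the first was 0.05 (adjusted p = 0.113) with scaling by library size alone.

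Col18a1 (chr10:77052178-77166530, minus strand) stood low in 1 group. It had 141, 144 and 151 CPM in WT-SD, 145, 134 and 147 in WT-TGF and 133, 146 and 141 in KO-TGF, and these 9 libraries overlapped. In KO-SD it had 61.7, 64.3 and 71.0 CPM, below all the others. It was 2.21-fold lower in KO-SD than WT-SD (log2 fold change -1.14 ± 0.04, adjusted p = 5.41e-20) and rose 2.13-fold with TGF-β in KO (1.09 ± 0.04, adjusted p = 8.73e-20). In WT the difference with TGF-β was -0.03 ± 0.04 (adjusted p = 0.495), and under TGF-β KO and WT differed by -0.02 ± 0.04 (adjusted p = 0.666). The responses differed by 1.12 ± 0.06 (interaction, adjusted p = 2.95e-15), the largest positive interaction among the 10 genes. Both differences that did not pass were called lower under scaling by library size alone, at -0.19 in WT (adjusted p = 9.78e-05) and -0.14 for KO-TGF against WT-TGF (adjusted p = 0.00285), where the median of all genes tested also moved, to -0.16 and -0.12.

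As shares of the summed RPKM of the 3 heparan sulfate core proteins, Hspg2 made up 61.5 ± 0.344% in WT-SD, 70.6 ± 0.306% in WT-TGF, 67.6 ± 0.422% in KO-SD and 76.6 ± 0.270% in KO-TGF. Agrn made up 28.2 ± 0.389%, 20.6 ± 0.131%, 28.1 ± 0.487% and 16.1 ± 0.0745% in the same order, and Col18a1 10.3 ± 0.236%, 8.85 ± 0.437%, 4.26 ± 0.117% and 7.29 ± 0.288%. The share of Agrn overlapped between KO-SD and WT-SD (exact permutation p = 0.9), while each share differed between SD and TGF-β in each genotype without overlap (exact permutation p = 0.1). These are shares of transcripts and say nothing of the proteins or of their chains.

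**Figure D3:**
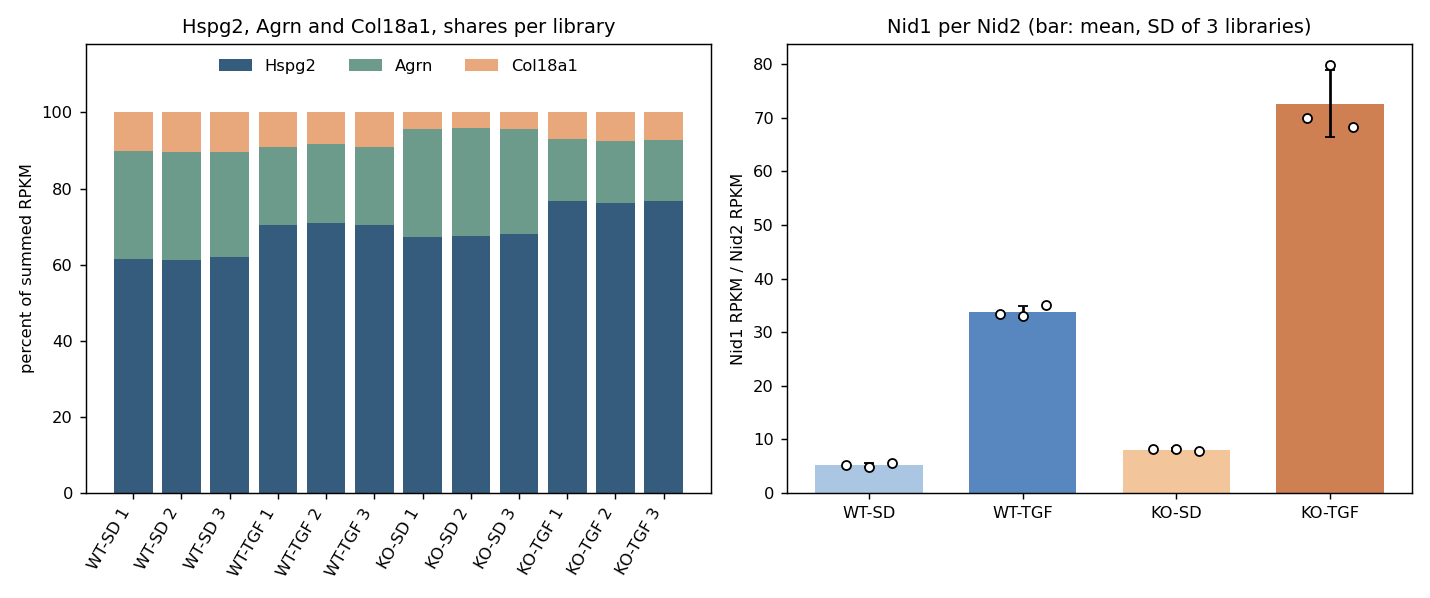
Left, shares of the summed RPKM (percent) of Hspg2, Agrn and Col18a1 in each of the 12 libraries, stacked; right, the ratio of Nid1 to Nid2 RPKM by group, with bars for means of 3 libraries, error bars for the SD and circles for libraries. Hspg2 took between 61.2% and 76.8% of the 3 core proteins and most in KO-TGF, and the nidogen ratio rose from 5.22 in WT-SD to 72.7 in KO-TGF.

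Col15a1 (chr4:47207655-47313167, plus strand), the relative of Col18a1, was much scarcer. It was at 10.1, 8.73 and 9.44 CPM in WT-SD, 23.1, 24.0 and 18.5 in WT-TGF, 3.35, 4.88 and 4.08 in KO-SD and 17.8, 17.0 and 18.3 in KO-TGF, from 73 to 538 counts per library. The 4 groups did not overlap, although the lowest WT-TGF library and the highest KO-TGF library were close. It rose 2.32-fold with TGF-β in WT (adjusted p = 3.5e-13, log2 fold change 1.22 ± 0.09) and 4.32-fold in KO (2.11 ± 0.12, adjusted p = 1.35e-16), and the rise was larger in KO (interaction 0.89 ± 0.15, adjusted p = 3.72e-05). It was 2.30-fold lower in KO-SD than WT-SD (-1.20 ± 0.13, adjusted p = 1.74e-09) and 1.24-fold lower in KO-TGF than WT-TGF (-0.31 ± 0.08, adjusted p = 0.00231). Col15a1 is in the heatmap of DKD-related genes that the study drew from these libraries, so its direction is not independent evidence. Col18a1 exceeded it per length by 14.0 ± 1.23 times in WT-SD and 14.8 ± 2.50 times in KO-SD, and by 5.98 ± 1.11 and 7.16 ± 0.522 times in WT-TGF and KO-TGF.

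The genes of the Fraser complex differed widely in level. Fras1 (chr5:96373777-96784733, plus strand), a large protein anchored in the membrane, was at 394, 384 and 413 CPM in WT-SD, 132, 148 and 129 in WT-TGF, 368, 402 and 372 in KO-SD and 58.1, 57.4 and 52.5 in KO-TGF. The SD libraries of the genotypes overlapped, and the KO-TGF libraries were below all others. Fras1 fell 2.91-fold with TGF-β in WT (adjusted p = 1.29e-24, log2 fold change -1.54 ± 0.04) and 6.80-fold in KO (-2.77 ± 0.05, adjusted p = 8.91e-30). The fall was larger in KO (interaction -1.22 ± 0.06, adjusted p = 6.39e-16), and the level was 2.43-fold lower in KO-TGF than WT-TGF (-1.28 ± 0.05, adjusted p = 3.95e-20). The difference between KO-SD and WT-SD, -0.06 ± 0.04 (adjusted p = 0.177), was called lower under scaling by library size alone (-0.13, adjusted p = 0.00335) and without KO-SD replicate 2 (-0.10, adjusted p = 0.026).

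Frem1 and Frem2, the partners of Fras1, were at a few counts per library. Frem1 (chr4:82897920-83052506, minus strand) had 9, 6 and 5 counts in WT-SD, 13, 14 and 15 in WT-TGF, 0, 0 and 2 in KO-SD and 0, 3 and 2 in KO-TGF. No KO library exceeded 3 counts, which was taken as the floor of detection. Summed over the group, WT-SD had 20 counts against 2 in KO-SD, a ratio of 9.61 scaled for depth (95% exact interval of counting error 2.33 to 84.8). WT-TGF had 42 against 5 in KO-TGF, a ratio of 7.43 (2.94 to 24.1). In WT, Frem1 was 2.20 times higher with TGF-β (1.26 to 3.95). The edgeR test gave folds of 8.06 (adjusted p = 0.00111), 6.97 (adjusted p = 9.99e-06) and 2.23 (adjusted p = 0.0141) for these 3 differences. That last call was lost without WT-SD replicate 2 or 3 or WT-TGF replicate 3 (adjusted p = 0.0563 to 0.066) and in DESeq2 (adjusted p = 0.128).

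Frem2 (chr3:53513938-53658593, minus strand) had 11, 11 and 10 counts in WT-SD, 3, 4 and 2 in WT-TGF, 2, 0 and 3 in KO-SD and 1, 0 and 1 in KO-TGF. The WT-SD libraries were above all others. WT-SD had 32 counts in all against 9 in WT-TGF, a ratio of 3.39 (1.58 to 8.09), and against 5 in KO-SD, a ratio of 6.15 (2.38 to 20.2). The edgeR test gave folds of 3.22 (adjusted p = 0.00575, and 0.0586 in DESeq2) and 5.66 (adjusted p = 0.000326). Changes with TGF-β in KO were not detectable at this depth for either gene, with 5 counts in a group at most (adjusted p = 0.338 for Frem1 and 0.502 for Frem2).

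Npnt (chr3:132881745-132950291, minus strand), the integrin ligand, responded in 1 genotype. It was at 189, 188 and 181 CPM in WT-SD, 98.3, 103 and 97.1 in WT-TGF, 161, 158 and 156 in KO-SD and 159, 163 and 163 in KO-TGF. The WT-TGF libraries were below all others and the libraries of the KO groups overlapped. Npnt fell 1.87-fold with TGF-β in WT (log2 fold change -0.90 ± 0.03, adjusted p = 3.26e-22), while in KO the difference was 0.03 ± 0.03 (adjusted p = 0.361), and the interaction was 0.93 ± 0.04 (adjusted p = 2.78e-17). With scaling by library size alone the KO difference turned to -0.17 (adjusted p = 3.48e-06), beside a median of -0.23 over all genes tested in that scaling. Npnt was 1.17-fold lower in KO-SD than WT-SD and 1.62-fold higher in KO-TGF than WT-TGF. The ratio of Fras1 to Npnt per length was 0.606 ± 0.0365 in WT-SD, 0.388 ± 0.0172 in WT-TGF, 0.682 ± 0.0352 in KO-SD and 0.0983 ± 0.00651 in KO-TGF.

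**Figure D4:**
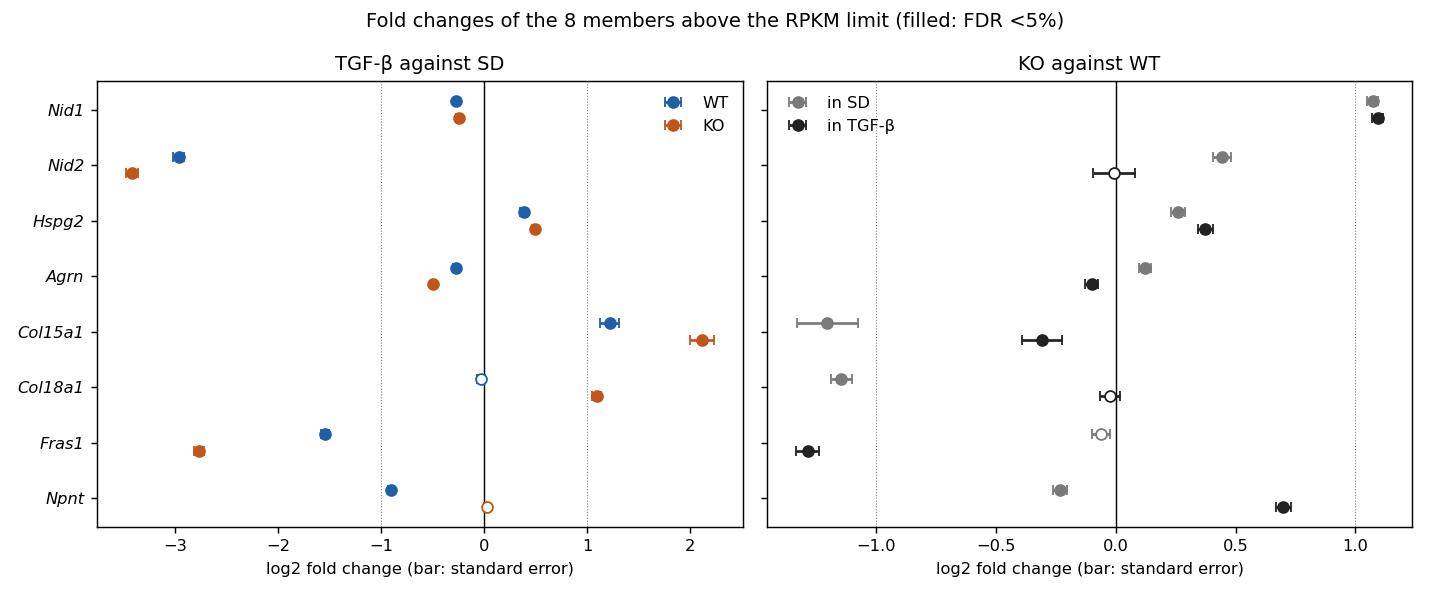
Log2 fold changes of the 8 genes above the RPKM limit from edgeR, with standard errors; filled points passed FDR <5% and dotted lines mark a fold change of 2. The left panel shows TGF-β against SD in WT and in KO, where Nid2 and Fras1 fell most and Col15a1 rose most, and the right panel KO against WT in SD and in TGF-β, where Nid1 was near 1.1 in both.

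Markers of cells other than mesangial cells also differed between the groups. The summed level of those of epithelium was lower with TGF-β in both genotypes, as Nid1, Nid2, Agrn and Fras1 were. That sum was also lower in KO-SD than WT-SD, where Nid1, Nid2 and Agrn were higher and Fras1 did not pass the test. Of 11 markers of tubular and parietal epithelium 5 were tested, and the summed level was 538 to 559 CPM in WT-SD, 174 to 188 in WT-TGF, 232 to 250.4 in KO-SD and 82.8 to 84.4 in KO-TGF. It came mostly from Pax8 and Cldn1, while Umod and Slc34a1, markers of tubule segments, were at 0 in every library. Krt8 and Krt18 had higher means in WT-TGF than WT-SD, at 1.20 against 0.392 CPM and 0.428 against 0.225, with at most 28 and 11 counts in a library. Of 7 macrophage markers 4 were tested, with sums of 35.5 to 39.4 CPM in WT-SD, 18.9 to 22.6 in WT-TGF, 8.13 to 9.77 in KO-SD and 2.30 to 2.68 in KO-TGF. Of the podocyte markers, Wt1 was at 99.1, 68.2, 25.3 and 11.7 CPM in WT-SD, WT-TGF, KO-SD and then KO-TGF (group means), and Podxl at 98.1, 74.0, 32.8 and 25.8. Synpo was at 247, 313, 159.7 and 172 CPM, and all 3 passed the test as lower in KO than WT in both conditions (log2 fold changes in SD of -1.97 ± 0.05, -1.58 ± 0.04 and -0.63 ± 0.03), as Col15a1 and Frem1 did, while Nphs1 had at most 1 count in a library. The part of other cells in the results was not tested, and in bulk cultures fewer cells of a type and less RNA per cell cannot be told apart.

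Counted by direction, 3 of the 10 genes rose with TGF-β in WT (Hspg2, Col15a1 and Frem1), 6 fell (Nid1, Nid2, Agrn, Fras1, Frem2 and Npnt) and Col18a1 did not pass. Of all genes tested, 72.4% were called in this comparison, 35.9% higher and 36.5% lower, so the count of 9 is not read as a result about these genes. In KO, 3 rose (Hspg2, Col15a1 and Col18a1), 4 fell (Nid1, Nid2, Agrn and Fras1) and 3 did not pass, beside 74% of all genes tested called, 35% higher and 39% lower. With a fold change above 2 as well, 2 rose and 3 fell in WT, where 4.18% of genes tested rose and 5.66% fell, and 2 rose and 2 fell in KO, where 4.41% rose and 9.03% fell. Over the 10 genes, the median log2 fold change was -0.27 in WT and -0.11 in KO, beside -0.01 and -0.02 over all genes tested.

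Between genotypes, 4 of the 10 genes were higher in KO-SD than WT-SD (Nid1, Nid2, Hspg2 and Agrn), 5 were lower (Col15a1, Col18a1, Frem1, Frem2 and Npnt) and Fras1 did not pass, where 55.9% of all genes tested were called, 30.6% higher and 25.3% lower. With scaling by library size alone the split was 3 higher and 6 lower. With a fold change above 2, 1 was higher and 4 were lower, and 3.24% and 3.12% of all genes tested met these criteria. In KO-TGF against WT-TGF, 3 were higher (Nid1, Hspg2 and Npnt), 4 were lower (Agrn, Col15a1, Fras1 and Frem1) and 3 did not pass, beside 55.1% of all genes tested, 27.3% higher and 27.8% lower. With a fold change above 2, 1 was higher (Nid1) and 2 were lower (Fras1 and Frem1), where 1.4% and 4.55% of all genes tested were. The TGF-β response differed between the genotypes for 7 of the 10 genes, 4 upward (Hspg2, Col15a1, Col18a1 and Npnt) and 3 downward (Nid2, Agrn and Fras1), while 25.4% of all genes tested had an interaction, 8.76% upward and 16.6% downward. Responses differing by more than 2-fold were found for Col18a1 upward and Fras1 downward, as for 0.34% and 2.4% of all genes tested. Frem1 and Frem2, whose background is the 18565 genes with a count, stand beside 51.6% of these called with TGF-β in WT (25.9% higher, 25.8% lower), 52.3% in KO, 41.3% for KO-SD against WT-SD (17.9% lower) and 39% for KO-TGF against WT-TGF (20.3% lower). With a fold change above 2 as well, 4.06% of these 18565 genes were higher and 6.88% lower with TGF-β in WT. In the same way, 5.42% were lower in KO-SD against WT-SD and 6.31% in KO-TGF against WT-TGF. The 5 comparisons share libraries and are not independent of each other.

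Scaling moved the split of all genes. With TGF-β in WT, 4124 genes were higher and 4191 lower with TMM, against 2648 and 5998 with scaling by library size alone, which shifted the median of all genes to -0.16 in WT, -0.23 in KO and -0.12 between KO-TGF and WT-TGF. In KO the numbers were 4014 higher and 4480 lower against 2304 and 6664, in KO-SD against WT-SD 3514 and 2901 against 2446 and 4161, and in KO-TGF against WT-TGF 3128 and 3195 against 1647 and 5378.

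The counts of the gene lists that follow stand beside the shares of all genes tested, which were 35.9% higher and 36.5% lower with TGF-β in WT, 35% and 39% in KO, and 30.6% and 25.3% in KO-SD against WT-SD. The networks that nidogens link changed unevenly by chain. Of 17 laminin and type IV collagen chains 11 were tested, and with TGF-β 6 rose and 4 fell in WT while 5 rose and 6 fell in KO. Lama1, a laminin alpha chain, rose in WT (log2 fold change 1.33 ± 0.08) and in KO (1.54 ± 0.08), and Col4a5 and Col4a6 fell in both, with log2 fold changes of -0.96 and -1.43 in WT and of -1.11 and -1.67 in KO. In KO-SD against WT-SD, 2 were higher and 6 lower, led by Col4a3 (-3.91 ± 0.05) and Col4a4 (-3.56 ± 0.06), whose products form a network with Col4a5. Lamc1, the laminin gamma chain that nidogen binds, was higher in KO-SD by 0.26 ± 0.02 on the log2 scale, at 515 ± 7.17 CPM in WT-SD and 618 ± 12.8 in KO-SD.

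Of 20 other basement membrane components 12 were tested, and 9 of them were higher and 2 lower in KO-SD than WT-SD (median log2 fold change 0.64 over those tested), where 30.6% of all genes tested were higher and 25.3% lower. Matn2, a matrilin, was at 9.46 ± 0.466 CPM in WT-SD and 37.7 ± 1.51 in KO-SD (log2 fold change 1.99 ± 0.06). With TGF-β 6 rose and 6 fell in WT. Fbln2, a fibulin that binds nidogen and perlecan, rose with TGF-β. Its level was 358 ± 20.3 CPM in WT-SD and 1036 ± 23.7 in WT-TGF (1.53 ± 0.03), and 752 ± 21.5 in KO-SD and 1639 ± 44.9 in KO-TGF (1.13 ± 0.03). Ntn1, a netrin, fell in both genotypes, with log2 fold changes of -1.13 ± 0.03 in WT and -2.03 ± 0.03 in KO. The response of 8 of the 12 was shifted downward in KO and that of 2 upward, as were those of 16.6% and 8.76% of all genes tested.

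Among 18 receptors of these proteins 15 were tested, of which 7 rose and 7 fell with TGF-β in WT and 7 rose and 8 fell in KO. Dag1, the dystroglycan receptor of perlecan and agrin, fell with TGF-β. It was at 2074 ± 31.8 CPM in WT-SD and 840.2 ± 12.6 in WT-TGF (log2 fold change -1.30 ± 0.02), and at 1572 ± 23.7 in KO-SD and 694 ± 5.31 in KO-TGF (-1.18 ± 0.02). Itgb1, the beta subunit of the nephronectin receptor, rose by 1.21 ± 0.02 in WT and 1.19 ± 0.02 in KO, and Itgb3 by 2.04 ± 0.03 and 2.01 ± 0.04. Itga8, the alpha subunit, was scarce, with group means of 2.90, 1.61, 3.05 and 0.637 CPM in WT-SD, WT-TGF, KO-SD and then KO-TGF. Between KO-SD and WT-SD 7 receptors were higher and 5 lower, among them Sdc2 (0.54 ± 0.04) and Itga2 (-1.14 ± 0.05).

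All 19 enzymes of heparan sulfate chains were tested. With TGF-β 10 rose and 7 fell in WT, and 11 rose and 6 fell in KO. Xylt1, which adds the xylose that starts a chain, rose as well, with 11.03 ± 1.08 CPM in WT-SD, 49.8 ± 1.45 in WT-TGF (log2 fold change 2.17 ± 0.06), 7.32 ± 0.480 in KO-SD and 29.4 ± 2.28 in KO-TGF (2.01 ± 0.08). Its interaction was -0.17 ± 0.11 (adjusted p = 0.289). It was lower in KO-SD by 0.59 ± 0.09 and in KO-TGF by 0.76 ± 0.06 than in the matching WT group. By RNA-seq tracks the study reports a rise of Xylt1 with TGF-β in WT cells and none in KO5 cells. The reason for this difference was not tested. Of the 6-O-sulfotransferases, Hs6st2 fell by 1.27 ± 0.03 in WT and by 1.04 ± 0.03 in KO, and Hs6st1 rose by 0.99 ± 0.03 in WT and by 1.47 ± 0.03 in KO (interaction 0.49 ± 0.04, adjusted p = 1.59e-10). Glce, the epimerase, had a larger response in KO (interaction 0.53 ± 0.04, adjusted p = 1.04e-10), at 71.2 ± 1.70, 115 ± 3.43, 93.3 ± 1.95 and 217 ± 2.27 CPM in WT-SD, WT-TGF, KO-SD and then KO-TGF. Sulf1, an extracellular sulfatase, was lower in KO-SD by 0.52 ± 0.03 and in KO-TGF by 0.76 ± 0.03 than in the matching WT group.

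Of 16 proteases that cut these or related proteins 13 were tested, and 8 rose and 4 fell with TGF-β in WT while 6 rose and 6 fell in KO. Bmp1, a procollagen protease that also cuts perlecan, rose by 1.07 ± 0.03 on the log2 scale in WT and by 1.01 ± 0.03 in KO (interaction -0.05 ± 0.04, adjusted p = 0.375). Its relative Tll1 was at 18.9 ± 0.577 CPM in WT-SD and 129.5 ± 7.73 in KO-SD (log2 fold change 2.78 ± 0.05, adjusted p = 1.22e-28), and at 35.0 ± 1.49 in WT-TGF and 49.3 ± 1.64 in KO-TGF. Adamts1 was at 626 ± 2.17 CPM in WT-SD, 222 ± 11.3 in WT-TGF, 534 ± 8.07 in KO-SD and 105 ± 4.46 in KO-TGF, and the fall passed the test in both genotypes (-1.49 ± 0.03 and -2.35 ± 0.03). Prss12, which cuts agrin, was lower in KO-SD by 1.25 ± 0.08 and in KO-TGF by 1.10 ± 0.09 on the log2 scale. Mmp9 was at 1.02 ± 0.362 CPM in WT-SD, 1.75 ± 0.0899 in WT-TGF, 0.438 ± 0.131 in KO-SD and 9.34 ± 0.954 in KO-TGF, and the rise passed the test in both genotypes.

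For each of the 8 genes above the limit, the gene outside the 10 with the most similar pattern was found by the correlation of log2 CPM over the 12 libraries, which lie in 4 groups, so that the value is a description. It was Plac8 for Nid1 (Pearson r = 0.999), Klf3 for Nid2 (0.997), Selenon for Hspg2 (0.995), Cpt1c for Agrn (0.993), Shank2 for Col15a1 (0.988), Slco2a1 for Col18a1 (0.988), Adamts1 for Fras1 (0.998) and Mapkapk2 for Npnt (0.953). Plac8 was at 62.6 ± 2.54, 52.0 ± 0.629, 152 ± 4.55 and 124 ± 2.46 CPM in WT-SD, WT-TGF, KO-SD and then KO-TGF. Slco2a1, a prostaglandin transporter, was at 76.5 ± 1.60, 81.6 ± 2.99, 28.9 ± 0.800 and 71.9 ± 3.58 CPM, low in KO-SD alone as Col18a1 was. For Nid2, 47 genes had a correlation over 0.99, and for Col15a1, Col18a1 and Npnt none had.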

How the data were processed

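Libraries were prepared from mRNA of MMC, and per the labels and the methods of the study single-end reads were aligned to mm10 with TopHat and counted on RefSeq genes with HTSeq, by strand and without poor alignments. The deposited values are whole-number counts per gene, with no normalization by the authors. Reads outside exons (10.3% to 15.4% of a library), on overlapping genes (0.225% to 0.274%) or with several alignments (11.2% to 11.7%) were left out of library sizes and tests. Depth was 19898050 to 22827706 counts on genes.

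Groups follow the labels. Exon lengths were the union of GENCODE vM21 exons, and 24719 genes had one. Genes with RPKM >1 in at least 1 library were tested in edgeR 4.0.16 (R 4.3.3) with TMM and the quasi-likelihood test, in one fit of 12 libraries with a mean per group, with Benjamini-Hochberg adjustment over all genes tested. The 5 contrasts set TGF-β against SD for WT and for KO, KO against WT under SD and under TGF-β, and the TGF-β responses against each other (interaction). SD is between libraries and SE from the fit. The fit was tested on simulated counts with the same spread for all genes, for WT-TGF against WT-SD only. This does not test how the real libraries vary. Ratios between genes were compared by exact permutation tests, and low counts by exact intervals, which cover counting error only. From each list and contrast, up to 2 genes with the largest positive and up to 2 with the largest negative fold change were eligible to be named, at FDR <5% and at least 5 CPM in the higher group. Itga8 was named outside this rule. Results for some marker genes are not reported here. The genes, lists and rule were chosen with earlier results of these data known.

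As alternatives, DESeq2 1.42.0 (independent filtering off), library sizes without TMM factors, a limit of more than 1 CPM in 3 or more libraries, no limit, separate fits per comparison, a replicate block, and fits with 1 library left out were run.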

Additional observations from a re-analysis of the deposited data

Results flagged for a closer look

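For 7 of the 10 genes the TGF-β response differed between genotypes by the interaction test of edgeR with Benjamini-Hochberg adjustment (FDR <5%), and 25.4% of all genes tested did so. The response in KO minus that in WT, on the log2 scale, was -0.45 for Nid2 (adjusted p = 0.000477), 0.11 for Hspg2 (adjusted p = 0.0444), -0.22 for Agrn (adjusted p = 3.42e-05), 0.89 for Col15a1 (adjusted p = 3.72e-05), 1.12 for Col18a1 (adjusted p = 2.95e-15), -1.22 for Fras1 (adjusted p = 6.39e-16) and 0.93 for Npnt (adjusted p = 2.78e-17). The call of Hspg2 was lost under scaling by library size alone, under the CPM filter and when certain single libraries were left out. For Col18a1 the WT response did not pass the test and for Npnt the KO response did not, while the other 5 genes moved in the same direction in both genotypes, less in WT than in KO. Groups of 3 libraries are too small for a search for outlying libraries.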

How the results depend on the processing

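Over the fold changes of the 10 genes, 582 of 600 values with 1 library left out and 256 of 270 under the other alternatives kept their direction and their side of the threshold. The 600 include fits without a library outside the groups compared, which can move a value only through the shared scaling and spread. Scaling by library size alone reversed the interaction of Nid1 (-0.026) and the KO response of Npnt (-0.17), and moved the summed RPKM of the 10 genes to 379 in WT-SD, 314 in WT-TGF, 458 in KO-SD and 396 in KO-TGF. Among all genes it moved those higher with TGF-β to 2648 in WT and 2304 in KO, and those of KO-TGF against WT-TGF to 1647 higher and 5378 lower. The difference of Nid2 between KO-TGF and WT-TGF had the opposite sign in DESeq2 (0.0088), under the CPM filter (0.0027), with no filter (0.0072) and without KO-TGF replicate 2 (-0.033 to 0.078 over the left-out libraries). The WT response of Col18a1 did so with no filter (0.0022) and without WT-TGF replicate 2 (-0.058 to 0.0085), and its difference between KO-TGF and WT-TGF without WT-TGF replicate 3 or replicate 1 of KO-TGF (-0.062 to 0.030). For Frem1 the interaction reversed without WT-SD replicate 1, KO-SD replicate 1 or 2 or KO-TGF replicate 2 (-0.47 to 2.84). Of these reversed values only that of Npnt passed the test (adjusted p = 3.48e-06), and the cause was not tested. Under the CPM filter 3 rather than 5 of the 10 genes were lower in KO-SD, since it leaves out Frem1 and Frem2. With no filter, where 18565 rather than 11478 genes were tested, more genes with a fold change above 2 were called, at 753 higher and 1278 lower in WT-TGF, 1772 lower in KO-TGF against KO-SD, 600 higher and 1007 lower in KO-SD, 300 higher and 1172 lower in KO-TGF against WT-TGF, and 68 and 428 for the interaction. With the CPM filter 591 and 814 were lower in KO-SD and in KO-TGF against their WT groups.

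Between samples with the same replicate number, deviations from the group means had correlations of -0.02 to 0.07. Values this small over all genes cannot show whether or not the numbers pair the libraries. The fit with the replicate number as a block changed no call of the 10 genes, and for example 3629 rather than 3514 of all genes were higher in KO-SD. In that fit the interaction of Hspg2 had an adjusted p of 0.00335 rather than 0.0444. Not every library correlated best with its own number. At this depth, changes of Frem1 and Frem2 within the KO line could not be resolved.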
